A study of Mus musculus with 18 samples.

Results

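Intermediate filament transcripts were examined in mouse embryonic stem cells (mESCs) held on soft or stiff gels with graded tethering of extracellular matrix (ECM). The genes described are 7 of the 46078 genes counted, chosen by symbol: Vim (vimentin), Krt7, Krt8, Krt18 and Krt19 (keratins), Nes (nestin) and Plec (plectin). All 7 passed the filter on low counts and were among the 13438 protein-coding genes tested. The 7 genes were chosen with earlier results of these data known, among them the high against low AHA difference of Vim and Krt19 on soft substrates. That contrast is therefore given below as a description, with no test. The soft against stiff differences at low and at high AHA share libraries with it and are given in the same way.

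Cytoplasmic intermediate filaments are rope-like polymers that give a cell resistance to stretch. Vimentin forms filaments on its own, whereas simple-epithelial keratins are obligate pairs of a type I chain (Krt18, Krt19) and a type II chain (Krt7, Krt8). Nestin co-assembles with vimentin, and plectin is a giant linker that ties filaments to actin, microtubules and integrin-based junctions. Keratins 8 and 18 are the earliest keratins of the mouse embryo and are best known there from trophectoderm, while nestin and vimentin are widely used as markers of neural progenitors and of mesenchymal cells.

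All samples were wild-type E14 mESCs, an established line, grown on fibronectin-coated StemBond hydrogels in medium with serum and LIF, a cytokine that maintains self-renewal, and lysed after 24 h. In these polyacrylamide gels 6-acrylamidohexanoic acid (AHA) supplies the anchor points for ECM protein, and its amount sets the tethering strength. Soft gels had a stiffness near 750 Pa and stiff gels one near 160 kPa, and AHA was 16 mM in low, 48 mM in mid and 80 mM in high AHA gels. There were 3 libraries for each of the 6 substrates. Replicate numbers follow sample order and only name a library. The labels state 3 samples per substrate without saying that they were separate cultures, so p-values measure the spread between samples, which may be technical. RNA came from lysates of whole cultures, in which fewer cells with a transcript and less of it per cell cannot be told apart.

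Gene counts per library ranged from 5850621 to 9290261. The soft, high AHA library replicate 1 stood apart, with 1.37% of its gene and spike-in counts in ERCC spike-in RNAs against 0.607 to 0.725% in the others, and was left out of the fit. This left 8 soft and 9 stiff libraries and only 2 for soft, high AHA. The unit of level is CPM: counts brought to a common total of tested protein-coding genes, after TMM normalisation. All 7 pluripotency markers listed were above 1 CPM on average, led by Pou5f1 at 551 ± 22.4 CPM on soft (SD, n = 8) and 540 ± 30.0 CPM on stiff substrates (SD, n = 9).

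The genes lie at separate loci apart from 1 keratin pair. On GRCm38, Krt8 (chromosome 15, 101996698 to 102004482, minus strand) and Krt18 (chromosome 15, 102028180 to 102032027, plus strand) are neighbours in a type II keratin cluster and point away from each other, with 23.7 kb between their starts. Krt7 (chromosome 15, 101411043 to 101430313) and Plec (chromosome 15, 76170974 to 76232574) share this chromosome. Vim is on chromosome 2 (13573927 to 13582826), Krt19 on chromosome 11 (100140810 to 100148665) and Nes on chromosome 3 (87971078 to 87980451). Exons of Gm671 on the opposite strand cover 1.09% of the Krt7 exon length, and same-strand exons of Parp10 cover 1.13% of that of Plec. The files list the genes as ENSMUSG00000026728 (Vim), ENSMUSG00000023039 (Krt7), ENSMUSG00000049382 (Krt8), ENSMUSG00000023043 (Krt18), ENSMUSG00000020911 (Krt19), ENSMUSG00000004891 (Nes) and ENSMUSG00000022565 (Plec).

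Promoter sequence is shown for Krt8, Krt18 and Nes because their levels separated every soft from every stiff library. The stretches run 5' to 3' on the gene's strand (RefSeq, GRCm38.p6) and hold the part of the 250 bases before the RefSeq start that no annotated exon of the gene covers. They are chr15:102004483-102004592 (minus strand) for Krt8, chr15:102027966-102028179 (plus strand) for Krt18 and chr3:87970843-87971077 (plus strand) for Nes. Capitals mark matches to GGGCGG, the GC box, which in Nes are on the opposite strand.
Krt8: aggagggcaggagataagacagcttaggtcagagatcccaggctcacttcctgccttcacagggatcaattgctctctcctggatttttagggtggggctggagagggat
Krt18: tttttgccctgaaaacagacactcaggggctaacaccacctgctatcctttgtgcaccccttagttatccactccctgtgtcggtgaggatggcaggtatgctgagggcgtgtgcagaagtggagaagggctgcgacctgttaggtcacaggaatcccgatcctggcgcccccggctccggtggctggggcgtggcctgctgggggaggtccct
Nes: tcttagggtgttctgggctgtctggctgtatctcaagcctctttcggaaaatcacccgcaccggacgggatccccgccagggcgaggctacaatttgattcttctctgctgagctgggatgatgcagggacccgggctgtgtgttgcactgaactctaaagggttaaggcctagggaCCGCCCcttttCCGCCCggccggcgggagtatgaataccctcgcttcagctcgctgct

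A total of 5 short motifs were searched in these windows. In all 250 bases, on both strands, the GC box was found in 2 of the 5 genes with an entry (Krt7 and Nes), against 32.7% of 32851 mouse promoters. TATAAA was found in 1 of 5 (Vim), against 12.4%. The YAP/TEAD motif GGAATG was found in 0 of 5 (12.6% of all promoters), the AP-1 motif TGANTCA in 0 of 5 (6.75%) and the CArG box of serum response factor in 0 of 5 (1.47%). No window matched more than 1 of the motifs, and a search of this kind says only which letters stand in it. The Vim window lies within annotated exons of the gene and is not shown.

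Transcripts of the filament system ranged from among the most abundant in the cells to near the median gene. Per kilobase of exon, Krt18 was highest at 462 ± 61.5 CPM per kb (SD, n = 17), above 99.8% of the tested genes. Its type II partner Krt8 stood at 194 ± 27.0 and Vim at 119 ± 12.8 CPM per kb. Krt19 (78.8 ± 12.7), Plec (61.6 ± 5.97) and Nes (39.0 ± 5.22) followed in CPM per kb, and Krt7 was lowest at 5.70 ± 0.758, above 50.4% of genes. When the principal transcript was taken as the length, Vim rose above Krt8, at 257 CPM per kb.

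Levels of 6 of the 7 genes were called lower on soft than on stiff substrates at mid AHA, a comparison that shares no library with high against low AHA on soft substrates. Krt7 was also lower there but did not pass the test. Over all genes tested, 1.85% were called lower in this comparison. Averaged over the 3 AHA concentrations, all 7 were called lower on soft substrates, with a median log2 fold change of -0.32, while the median of all genes was 0.0011 and 4.82% of genes were called lower. This average includes the 5 fitted soft, low and soft, high AHA libraries, so it is not fully independent of the contrast known when the genes were chosen. With equal variance in all libraries the 2 estimates would have a correlation of 0.12, against 0 for the mid AHA comparison. Because the 7 genes were chosen with earlier results of these data known, these counts and shares describe them and are not independent support. The calls and adjusted p-values of the average are likewise read as a description here and below.

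Vimentin, the mesenchymal filament protein, spanned 447, 461 and 498 CPM in the soft, low AHA libraries, 523, 491 and 533 CPM at mid AHA and 563 and 577 CPM at high AHA. On stiff substrates Vim was at 616, 606 and 604 CPM with low AHA, 640, 563 and 590 CPM with mid AHA and 628, 617 and 614 CPM with high AHA. The soft, low AHA libraries had the lowest mean and overlapped those at mid AHA, the 9 stiff libraries lay in a narrow band, and the top 2 soft libraries reached its lower edge. At mid AHA, Vim was lower on soft substrates (-0.21 ± 0.041, log2, SE, adjusted p = 0.000174). Its average difference was -0.24 ± 0.025 (SE, adjusted p = 2.29e-14).

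**Figure D1:**
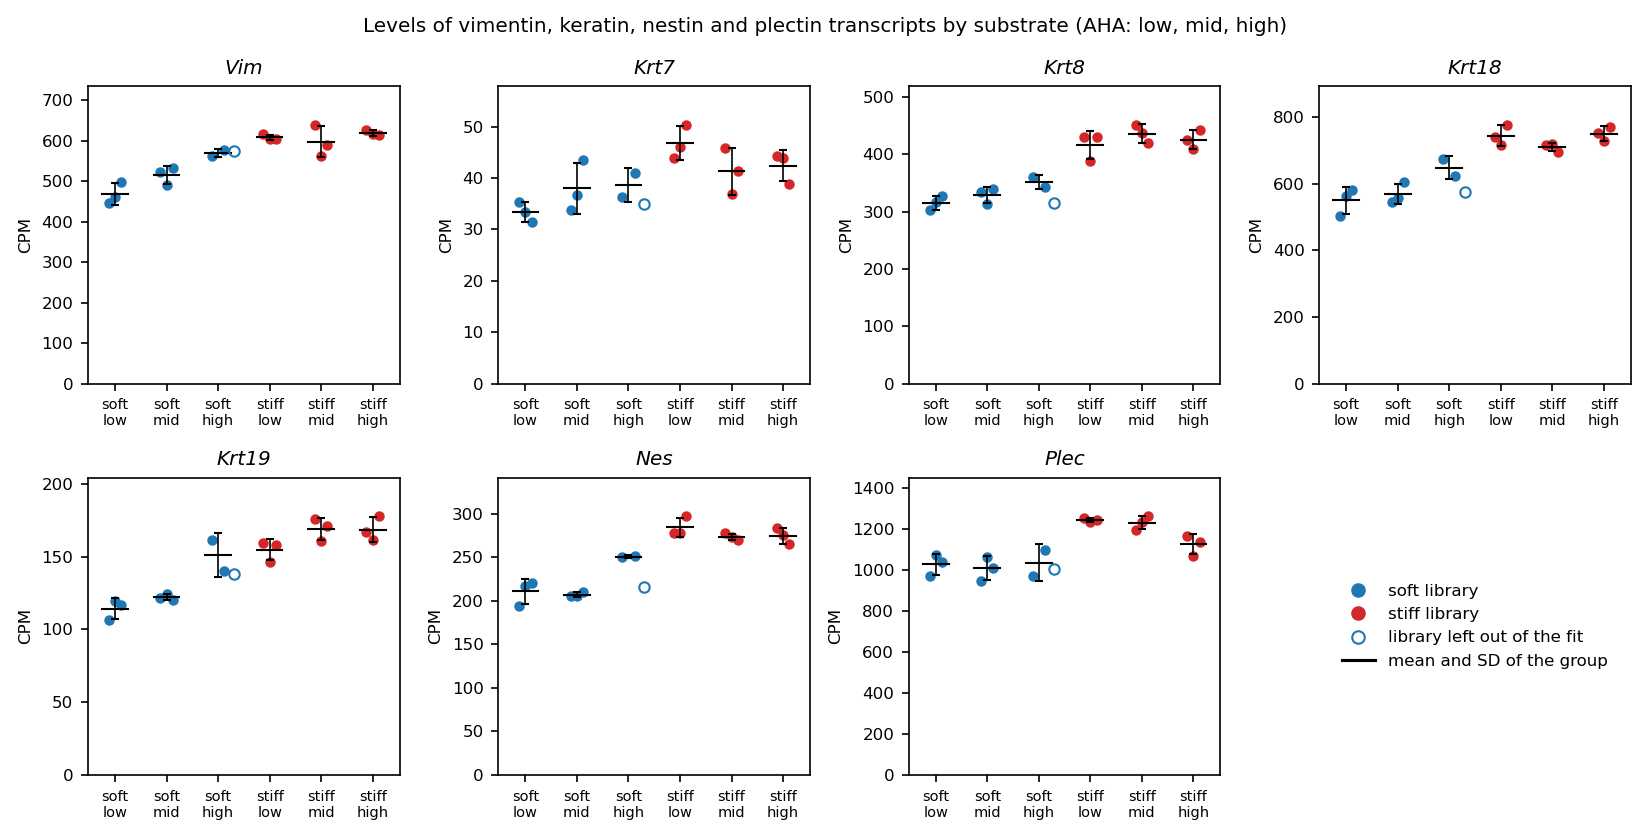
Level of each gene (CPM, linear axis from 0) in every library, by substrate; filled points are fitted libraries, bars the group mean and SD, and the open point the soft, high AHA library left out of the fit. The 8 soft libraries of Krt8, Krt18 and Nes lie below all 9 stiff ones, while those of Vim, Krt7, Krt19 and Plec reach into the stiff range.

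Type II Krt8 was at 303, 316 and 327 CPM on soft, low AHA, 334, 313 and 340 CPM on soft, mid AHA and 361 and 343 CPM on soft, high AHA substrates. Its stiff libraries held 429, 389 and 430 CPM with low AHA, 451, 437 and 420 CPM with mid AHA and 425, 409 and 443 CPM with high AHA. No soft library reached the lowest stiff one. The differences were -0.41 ± 0.045 at mid AHA (log2, SE, adjusted p = 1.18e-12) and -0.36 ± 0.027 on average (adjusted p = 1.34e-23). This average was the lowest of the 7 genes, but Krt19 (-0.35 ± 0.037) lay within the SE. Without soft, high AHA replicate 2 the order turned, with Krt8 at -0.38 and Krt19 at -0.40. Some Krt8 reads may be shared: 51.8% of its transcript has a copy of at least 95% identity in the pseudogenes Gm36026 and Krt8-ps. Neither was among the genes counted, so shared reads could not be checked. Gm36026 also overlaps 5.16% of the Krt8 exon length on the opposite strand.

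Type I Krt18, the usual partner of Krt8, was measured at 505, 564 and 582 CPM on soft, low AHA, 546, 558 and 606 CPM on soft, mid AHA and 674 and 624 CPM on soft, high AHA substrates. The stiff values were 742, 716 and 778 CPM (low AHA), 716, 720 and 697 CPM (mid AHA) and 754, 729 and 772 CPM (high AHA). Here too the soft and stiff libraries did not overlap, although the highest soft library came within 23.3 CPM of the lowest stiff one. Krt18 differed by -0.32 ± 0.041 at mid AHA (log2, SE, adjusted p = 1.97e-09) and by -0.32 ± 0.025 on average (adjusted p = 3.92e-22).

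Krt19, a small type I keratin that pairs with Krt7 or Krt8, had 106, 120 and 117 CPM on soft, low AHA, 122, 124 and 120 CPM on soft, mid AHA and 162 and 140 CPM on soft, high AHA substrates. On stiff substrates it had 160, 146 and 158 CPM with low AHA, 176, 160 and 171 CPM with mid AHA and 167, 161 and 178 CPM with high AHA. A soft, high AHA library therefore lay inside the stiff range, and the 6 soft libraries with less AHA lay below it. Krt19 gave the lowest log2 fold change of the 7 genes at mid AHA, -0.47 ± 0.062 (SE, adjusted p = 3.63e-09), and -0.35 ± 0.037 on average (adjusted p = 2.34e-14).

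Krt7, a type II keratin of simple and glandular epithelia, was the rarest of the genes. It had 35.3, 33.4 and 31.4 CPM on soft, low AHA, 33.8, 36.7 and 43.5 CPM on soft, mid AHA and 36.2 and 41.0 CPM on soft, high AHA substrates. The stiff libraries ranged from 36.8 to 50.3 CPM with a median of 43.9, so that the groups overlapped. At mid AHA the difference was -0.11 ± 0.11 (log2, SE, adjusted p = 0.737) and did not pass the test, whereas the average of -0.25 ± 0.068 did (adjusted p = 0.0075). The mid AHA value moved to -0.029 without soft, mid AHA replicate 1 and to -0.22 without soft, mid AHA replicate 3. Without stiff, mid AHA replicate 1 or 2 it was -0.032 or -0.19.

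Nestin, the large filament protein that co-polymerises with vimentin, was at 194, 217 and 221 CPM on soft, low AHA, 205, 206 and 210 CPM on soft, mid AHA and 250 and 252 CPM on soft, high AHA substrates. The stiff libraries had 278, 278 and 297 CPM (low AHA), 277, 273 and 270 CPM (mid AHA) and 283, 275 and 265 CPM (high AHA). Soft and stiff libraries were again fully apart. Nes was lower on soft substrates by -0.40 ± 0.050 at mid AHA (log2, SE, adjusted p = 4.07e-10) and by -0.32 ± 0.030 on average (adjusted p = 3.05e-17).

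Plectin, the linker, had 971, 1071 and 1037 CPM on soft, low AHA, 947, 1064 and 1011 CPM on soft, mid AHA and 972 and 1098 CPM on soft, high AHA substrates. The stiff libraries held 1251, 1234 and 1243 CPM with low AHA, 1195, 1234 and 1261 CPM with mid AHA and 1166, 1070 and 1138 CPM with high AHA. Groups were separate at low and mid AHA and overlapped at high AHA, where the stiff level was lowest. The log2 fold change was -0.29 ± 0.039 at mid AHA (SE, adjusted p = 2.98e-08) and -0.23 ± 0.023 on average (adjusted p = 1.97e-13). This average was the nearest to 0 of the 7 genes, but Vim (-0.24 ± 0.025) lay within the SE. Without soft, high AHA replicate 3 the order turned, with Plec at -0.26 and Vim at -0.24.

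Counted by overlap, 6 of 7 genes had all 3 soft libraries below all 3 stiff ones at mid AHA, against 9.48% of all genes. Across AHA concentrations, 3 of 7 had all 8 soft libraries below all 9 stiff ones (Krt8, Krt18 and Nes), against 0.871% of all genes. As a description, all 7 were separate in the same direction at low AHA (9.6% of all genes), with log2 fold changes from -0.49 for Krt7 to -0.28 for Plec. At high AHA, 4 of 7 were separate (12.4% of all genes), with values from -0.27 for Krt8 to -0.12 for Vim and Plec. Each of the 7 point estimates was nearer to 0 at high than at low AHA, and whether these differences depended on AHA was not tested.

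**Figure D2:**
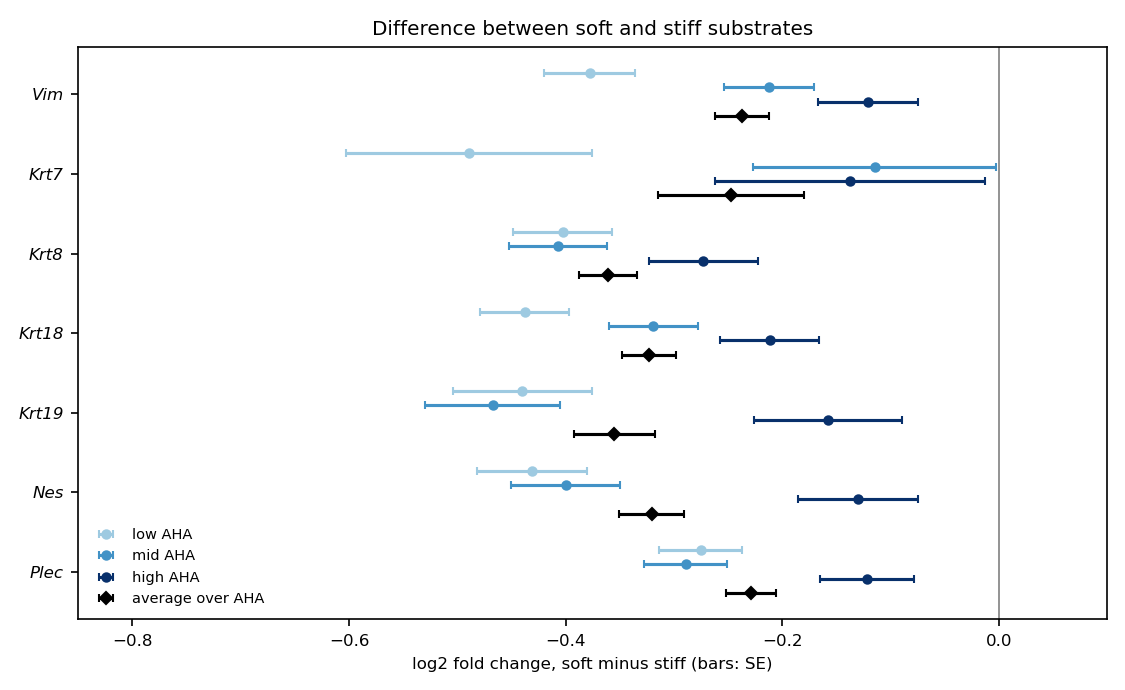
Log2 fold change of each gene, soft minus stiff, at low, mid and high AHA (blue circles) and averaged over AHA (black diamonds), with SE bars. All 28 estimates lie below 0, and the high AHA values lie nearest to 0 for every gene except Krt7, whose mid AHA value is nearest.

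Marker genes of several cell types were read beside these differences. The summed level of 7 pluripotency markers was 1802 to 1977 CPM on soft and 1598 to 1730 CPM on stiff substrates, and 6 of 7 were called higher on soft, against 3.77% of all genes. The 7 trophectoderm markers summed to 69.6 to 92.9 CPM on soft and 87.0 to 102 CPM on stiff substrates. Of the 6 tested, 1 was called lower on soft, against 4.82% of all genes. This was Hand1, the highest of the list (-0.30, adjusted p = 0.000841). Cdx2 was at 3.17 and 3.84 CPM and Elf5 at 0.38 and 0.39 CPM on average. The 8 fibroblast markers summed to 119 to 200 CPM on soft and 173 to 244 CPM on stiff substrates. Of the 6 tested, 1 was called lower on soft, against 4.82% of all genes. This was Col1a1, the highest of the list (-0.49, adjusted p = 0.00282). Dcn was at 0.21 and 0.18 CPM, and Lum had no counts in any fitted soft library. The trophectoderm and fibroblast sums overlapped between soft and stiff. So did those of primitive endoderm (36.8 to 51.2 and 37.3 to 49.3 CPM), neural progenitor (19.0 to 27.3 and 15.2 to 21.5 CPM) and mesoderm markers (62.1 to 89.0 and 75.6 to 90.1 CPM). In these latter lists the 1 call was Hand1, also a mesoderm marker here (6 mesoderm genes tested). The part of these cells or states in the filament differences was not tested.

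On soft substrates, filament transcripts stood higher with high than with low AHA, given here as a description because this contrast was known when the genes were chosen. All 7 log2 fold changes were above 0, and 6 of 7 genes had both high AHA libraries above all 3 low AHA ones, against 12.7% of all genes. The largest was 0.41 ± 0.070 for Krt19 (SE), followed by Vim at 0.28 ± 0.046, Nes at 0.25 ± 0.056 and Krt18 at 0.24 ± 0.046. Krt7 (0.21 ± 0.13) and Krt8 (0.16 ± 0.051) were smaller. Plec, the only linker among the 7, was level at 0.011 ± 0.043 and was the gene whose libraries overlapped.

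The steps between AHA concentrations differed from gene to gene. For Vim the 2 steps were alike, 0.14 from low to mid and 0.14 from mid to high AHA on the log2 scale. Krt19 gained 0.094 in the lower step and 0.31 in the upper one. Nes changed by -0.026 and then by 0.28, and Krt18 by 0.050 and then by 0.19. Krt7 had its step at the lower end (0.19, then 0.019), with an SE too large to place it. Between low and mid AHA, Krt19 was the only gene of the 7 with separate libraries, against 5.92% of all genes, and its groups lay 0.336 CPM apart.

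These values rest on 2 high AHA libraries. The library left out of the fit had 574 CPM of Vim and 138 CPM of Krt19, above all soft, low AHA libraries. Its Krt8 (314 CPM), Krt18 (575 CPM), Nes (215 CPM), Krt7 (34.9 CPM) and Plec (1003 CPM) did not exceed the highest soft, low AHA library. With all 18 libraries the Nes value fell to 0.18, and its lowest value over all alternative fits was 0.14. If library 2 was left out in place of library 1, Krt8 fell to 0.060 and Krt18 to 0.12. Krt7 was at 0.12 without soft, high AHA replicate 3, and its lowest value over all alternative fits was 0.095.

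**Figure D3:**
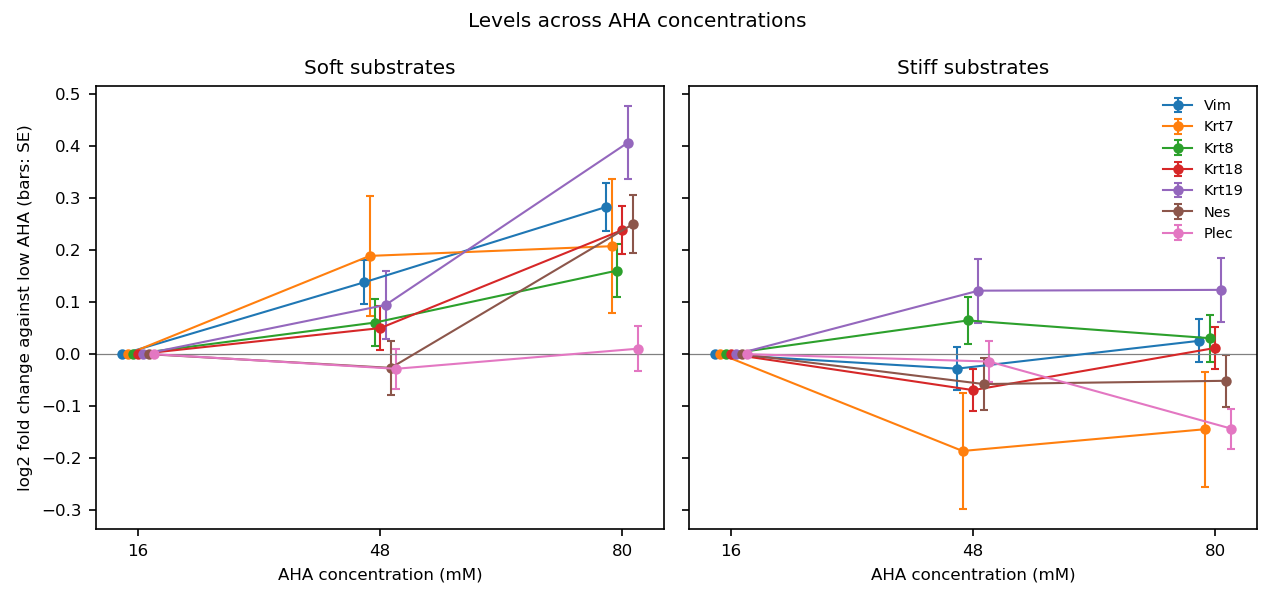
Log2 fold change against low AHA (SE bars) at each AHA concentration in mM, on soft (left) and stiff substrates (right); points are shifted sideways for legibility. On soft substrates 6 genes lie between 0.16 and 0.41 at high AHA and Plec at 0.011, whereas on stiff substrates values at high AHA lie between -0.14 and 0.12.

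On stiff substrates no AHA difference passed the test in edgeR. High against low AHA gave 0 of 7 calls, with 0.00744% of all genes called, and 2 of 7 had an unadjusted p under 0.05 (6.04% of all genes). Mid against low AHA (0% of all genes), high against mid AHA (0.00744%) and the F test over the 3 concentrations (0.00744%) also gave 0 of 7 calls, with 1, 2 and 1 genes under an unadjusted p of 0.05 (4.99, 5.83 and 6.08% of all genes). DESeq2 called 0 of 7 in each of these, and 2, 0, 1 and 0 of all genes, and gave no adjusted p for 2 genes in high against low AHA.

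The stiff values nearest to a difference were those of Plec and Krt19. Plec was lower with high than with low AHA in all 3 libraries, by -0.14 ± 0.039 (log2, SE, unadjusted p = 0.000362, adjusted p = 0.299). Krt19 was higher with high than with low AHA, without overlap, by 0.12 ± 0.061 (unadjusted p = 0.0455, adjusted p = 0.814). Separation of this kind occurred in 5.34% of all genes upward and 5.53% downward. For Vim, Krt8 and Krt18 the stiff differences were 0.026 ± 0.041, 0.031 ± 0.045 and 0.012 ± 0.041, and for Nes and Krt7 they were -0.051 ± 0.049 and -0.14 ± 0.11. On stiff substrates, Krt19 was also higher (5.38% of all genes) and Nes lower (5.19%) without overlap in mid against low AHA. Without stiff, low AHA replicate 2 the high against low AHA values of Krt8 and Krt18 turned to -0.013 and -0.015, and without stiff, high AHA replicate 3 that of Krt18 turned to -0.0091. Leaving out each library in turn, that of Nes ranged from -0.076 to -0.015 and that of Krt7 from -0.19 to -0.082.

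Ordered by group means, soft, low AHA was lowest for Vim and all 4 keratins, and soft, mid AHA was lowest for Nes and Plec, next to soft, low AHA with overlapping libraries. Soft, high AHA came next, below the stiff groups, for all 7. Its libraries were apart from the next stiff group for Krt8, Krt18 and Nes and overlapped it for Vim, Krt7, Krt19 and Plec. Among the 3 stiff groups neighbours overlapped for all genes except Krt19 (low against high AHA) and Plec (high against mid AHA).

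The ratio of keratin types was compared between substrates. Per kilobase, Krt18 and Krt19 together were 2.73 ± 0.128 times Krt7 and Krt8 on soft (SD, n = 8) and 2.69 ± 0.104 times on stiff substrates (SD, n = 9). Krt18 alone was 2.41 ± 0.103 times Krt8 on soft and 2.36 ± 0.114 times on stiff substrates. The soft against stiff difference in each was smaller than the spread between libraries. By group, Krt18 over Krt8 was lowest at stiff, mid AHA (2.22 ± 0.053, SD, n = 3). It was 2.44 ± 0.081 at stiff, low and 2.41 ± 0.027 at stiff, high AHA (SD, n = 3 each). Differences between these groups were not tested.

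The genes varied together across the 17 libraries. Over 21 pairs, Pearson's r of log2 CPM ranged from 0.59 to 0.96 with a median of 0.81. Within the 8 soft libraries the median was 0.53 (-0.13 to 0.92) and within the 9 stiff libraries 0.11 (-0.45 to 0.81). All points share the substrates and the scaling of each library, so these values are descriptions.

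**Figure D4:**
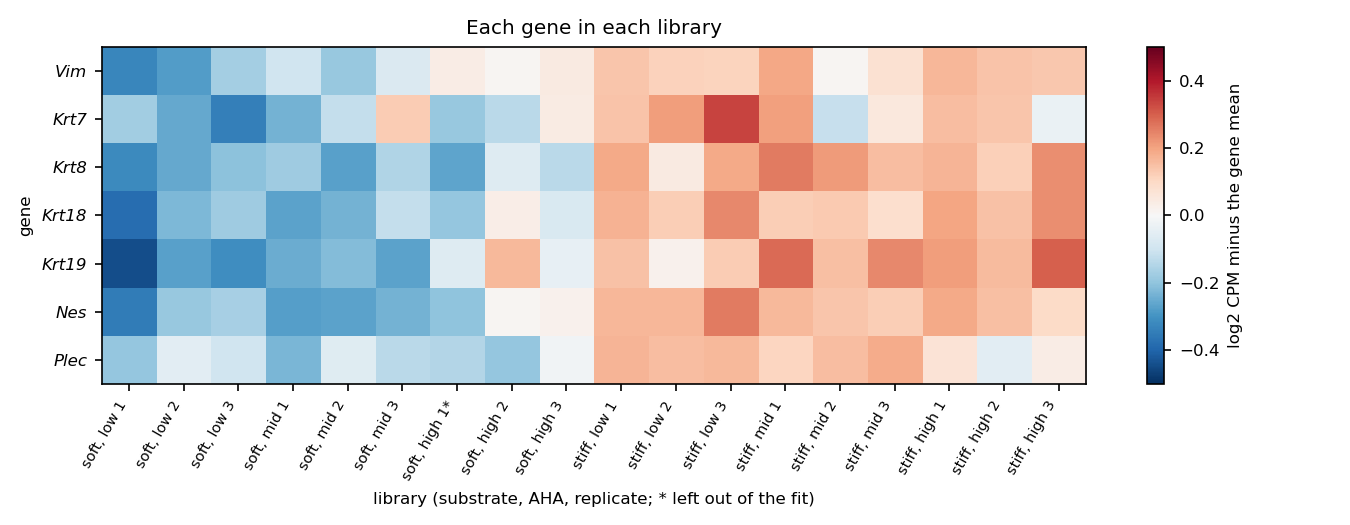
Log2 CPM of each gene in each library minus the gene's mean over the 17 fitted libraries (colour scale from -0.5, blue, to 0.5, red; the library marked with an asterisk was left out of the fit). Soft libraries are mostly blue and stiff libraries mostly red.

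Among 9218 genes with at least 10 CPM on average, those most like Vim, Krt8, Krt18 and Krt19 over the 17 libraries had average log2 fold changes from -0.52 (Thbs1) to -0.24 (Dbn1), soft minus stiff. For Vim they were Samd4 (r = 0.93), Zyx (0.93) and Sfn (0.92). Those nearest to Krt8 were Slc25a24 (0.96), Noct (0.95) and Bcam (0.95), and those nearest to Krt18 were Itgb1 (0.97), Dusp4 (0.97) and Thbs1 (0.96). Krt19 was most like Dusp4 (0.96), Dbn1 (0.95) and Serpinh1 (0.94). Within the 9 stiff libraries r ranged from 0.29 (Krt19 and Dusp4) to 0.87 (Vim and Samd4). Within the 8 soft libraries it ranged from 0.55 (Krt8 and Noct) to 0.99 (Krt19 and Dusp4). The genes were picked by r over soft and stiff libraries together, which by itself favours average fold changes below 0. The Vim neighbour Zyx, which encodes the focal adhesion protein zyxin, was at 156 ± 16.2 CPM on soft and 206 ± 17.0 CPM on stiff substrates, and the Krt18 neighbour Itgb1, which encodes integrin beta 1, at 375 ± 24.9 and 451 ± 20.0 CPM (SD, n = 8 and n = 9).

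Further genes of the filament system were taken from 3 lists, which were also chosen with earlier results of these data known. Of their 46 filament and linker genes, 34 were tested, and on average over AHA 8 were called lower and 1 higher on soft substrates, against 4.82% and 3.77% of all genes. The median over the 34 was -0.076. At mid AHA 4 were called lower and 1 higher, against 1.85% and 1.01% of all genes.

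Plakins and junction linkers gave 6 of these calls, all lower on soft substrates, among 17 tested, with a list median of -0.14. Desmoplakin (Dsp), which anchors keratins at desmosomes, was at 371 ± 26.4 CPM on soft and 447 ± 24.8 CPM on stiff substrates (-0.26 ± 0.028, adjusted p = 1.20e-13). Its desmosomal partner Pkp2 changed by -0.33 ± 0.044 (adjusted p = 2.06e-09), and Itgb4, the integrin chain that binds plectin in hemidesmosomes, by -0.33 ± 0.066 (adjusted p = 0.000105). Periplakin (Ppl, -0.24), Itga6, the partner of Itgb4 (-0.15), and plakoglobin (Jup, -0.092) were also called, and Dsp, Pkp2, Ppl and Itgb4 were called at mid AHA as well. Hspb1, a small heat shock protein that binds filaments and the list's highest gene per kilobase, did not pass (-0.045 ± 0.040, adjusted p = 0.586).

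Among other keratins, 7 of 16 were tested, with a median of 0.056. Krt42, the list's highest gene per kilobase, was the 1 gene called higher on soft substrates, at 50.0 ± 3.64 against 38.6 ± 3.40 CPM (0.38 ± 0.064, adjusted p = 1.83e-06; 0.40 at mid AHA, adjusted p = 0.0114). Krt20 was lower (-0.63 ± 0.21, adjusted p = 0.0323) at 3.25 ± 1.46 against 5.16 ± 1.32 CPM. In the list of other type III, type IV and lens filament genes, 10 of 11 were tested, with a median of -0.069 and 1 call. This was Gfap, the glial filament gene, at 0.94 ± 0.35 against 2.03 ± 0.80 CPM (-1.14 ± 0.36, adjusted p = 0.0237), a level of few counts. Nefh, a neurofilament gene and the list's highest per kilobase, was at 179 ± 7.51 and 182 ± 8.35 CPM and did not pass (-0.019 ± 0.034, adjusted p = 0.828).

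**Figure D5:**
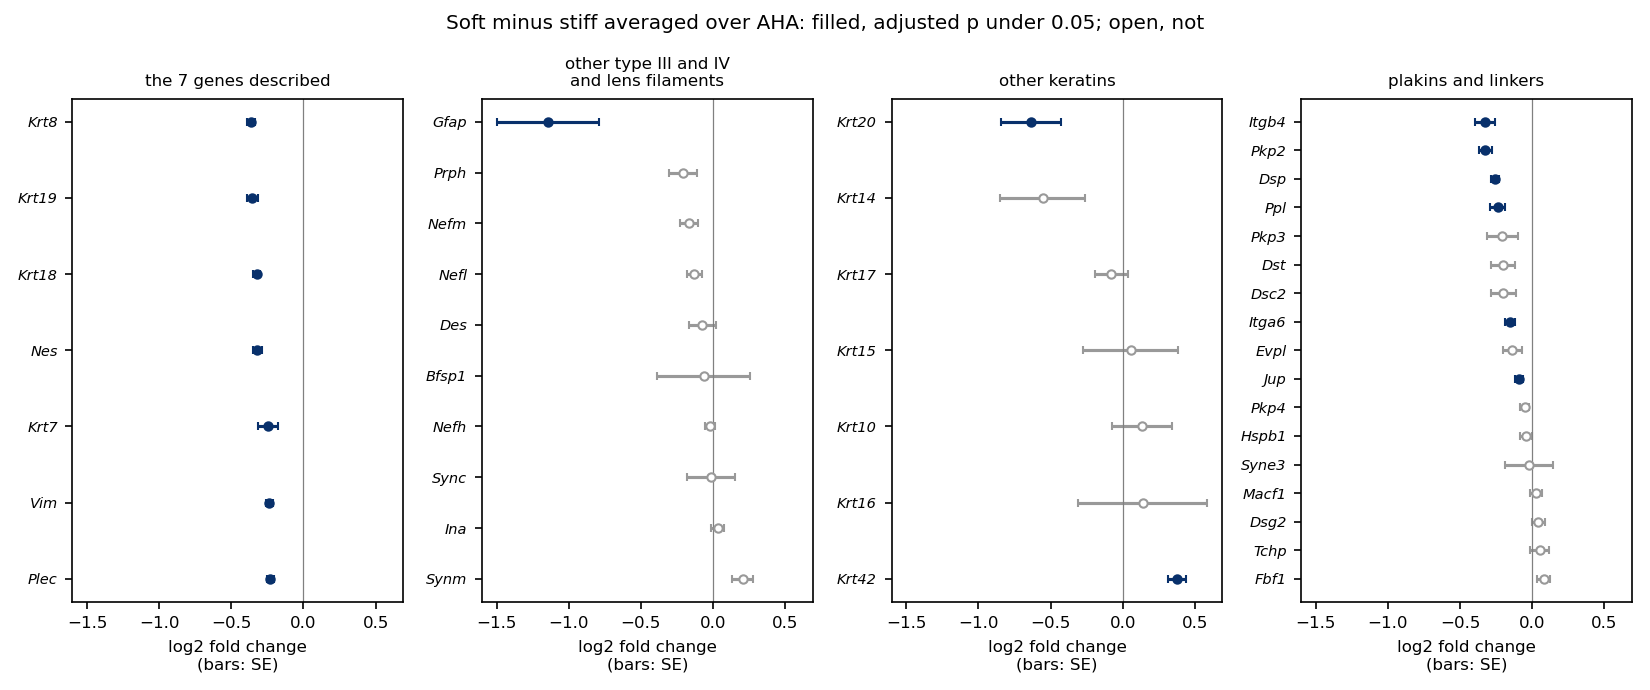
Average log2 fold change, soft minus stiff, with SE bars, for the 7 genes and for the 34 tested genes of the 3 other lists; filled points have an adjusted p under 0.05. The 7 genes lie between -0.36 and -0.23, Krt42 is the only filled point above 0, and 8 other genes are filled below 0.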

How the data were processed

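RNA from 18 mESC samples was sequenced. The authors trimmed reads, aligned them with GSNAP to GRCm38/mm10 and counted them per gene (Ensembl release 81) with HTSeq. The deposited values were raw counts. HTSeq summary lines, 61.5 to 64.0% of each column's sum, entered neither library sizes nor tests. Whether counting used strand is not given in the sources used here. Symbols, exons and positions came from GENCODE M21. Library kits were a pico-input mammalian type.

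Low protein-coding genes were removed by filterByExpr (minimum count 10), and the rest were TMM-normalised and fitted in edgeR 4.0.16 (R 4.3.3) with a robust quasi-likelihood model of 1 coefficient per group, and 13438 were tested, with Benjamini-Hochberg adjustment over all of them. A gene was called at an adjusted p under 0.05. One library with a high ERCC share was left out, as the study removed such libraries. The biological coefficient of variation was 5.35%. Standard errors came from the F statistic. Copies were searched with BLAST+ 2.17.0 (at least 95% identity over 100 bases). DESeq2 1.42.0, other scalings and filters, other libraries left out and leaving out each library were alternatives.

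The 7 genes and the other lists were chosen with earlier results of these data known. Genes named are the 7, called genes and the highest gene per kilobase of the other lists, and the 3 genes most like each of Vim, Krt8, Krt18 and Krt19. Marker genes with values were chosen from the marker lists after their values were seen.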

Additional observations from a re-analysis of the deposited data

Results flagged for a closer look

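The soft, high AHA library that was left out of the fit because of its ERCC share gave signals outside the comparisons. It had 574 CPM of Vim and 138 CPM of Krt19, both above all 3 soft, low AHA libraries (at most 498 and 120 CPM). Krt7, Krt8, Krt18, Nes and Plec in that library did not exceed the highest soft, low AHA library.

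For Krt7 and Nes, each soft, high AHA library lay above the soft, low AHA mean and each stiff, high AHA library lay below the stiff, low AHA mean. The high against low AHA effect on soft minus that on stiff substrates was 0.35 for Krt7 and 0.30 for Nes on the log2 scale. With soft, high AHA library 2 or 3 left out in place of library 1, the Nes value was 0.20 or 0.19 and the Krt7 value 0.33 or 0.24. Krt19 (0.28) and Vim (0.26) had differences of similar size, without opposite directions. On stiff substrates alone the values were -0.14 ± 0.11 for Krt7 and -0.051 ± 0.049 for Nes (SE). Neither passed the edgeR test (adjusted p = 0.909 and 0.935), so the opposite direction is uncertain for both. These differences were not tested.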

How the results depend on the processing

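The counts of called genes were the same in all alternatives run: 7 of 7 for soft against stiff averaged over AHA, 6 of 7 at mid AHA and 0 of 7 for the contrasts on stiff substrates. Adjusted p reached 0.0478 for Krt7 in the average and 0.0389 for Vim at mid AHA. Leaving out each library turned the sign of high against low AHA on stiff substrates for Krt8 (-0.013 to 0.057) and Krt18 (-0.015 to 0.046). The described AHA difference on soft substrates was less steady: Krt19 ranged from 0.28 to 0.50, Nes from 0.14 to 0.28, Krt7 from 0.095 to 0.29, Krt8 from 0.060 to 0.20, Krt18 from 0.12 to 0.29 and Plec from -0.077 to 0.091 over all alternatives, and the cause was not tested. Limits include 2 fitted libraries at soft, high AHA, the low counts of Krt7, the pseudogene copies of Krt8 and samples not stated to be separate cultures. No paired analysis was possible because the labels carry no replicate numbers (those used here follow sample order and pair nothing).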
